A study of Mus musculus with 6 samples.

Results

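The genes described here are 10 markers of brain tissue that lies next to the hippocampus, taken by symbol from a hippocampal expression table of 56941 genes. They were 4 markers of thalamus (Tcf7l2, Prkcd, Ramp3 and Lef1), 3 of cortex (Rorb, Cux2 and Tshz2) and 3 of striatum (Drd1, Drd2 and Ppp1r1b), each found in 1 row of the table. The question was whether any of 6 hippocampal libraries carried more of these transcripts than the others. Hoatz, a gene associated with motile cilia and flagella, was absent by design in 3 mice labelled Hoatz knockout, and 3 mice were labelled WT. All were untreated adult males from a colony on a C57BL/6J background, and no Cre line or transgene was named. Each genotype had 1 mouse at postnatal day 172 (replicate 1), 1 at day 146 (replicate 2) and 1 at day 108 (replicate 3), and the study's methods give same-age mice as littermates. Age, pair and replicate number therefore cannot be told apart.

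Values are TPM, the share of a library's transcripts that a gene takes after correction for transcript length and brought to an equal sum in all libraries. They keep no read depth, so no counting error can be given. Hoatz itself was listed at 0.35, 0.24 and 0.56 TPM in knockout replicates 1, 2 and 3 and at 0.13, 0.36 and 0.50 TPM in WT replicates 1, 2 and 3. The genotypes overlapped, and a gene total cannot tell a deleted exon from the rest of the transcript, so Hoatz gave no check of the labels.

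Thalamus, cortex and striatum border the hippocampus or lie close to it, and a dissection can take along pieces of them. The thalamus relays sensory and motor signals to the cortex through glutamatergic neurons, which keep the Wnt pathway factors Tcf7l2 and Lef1 into adult life. Layered projection neurons of the cortex are told apart by transcription factors such as Cux2 in upper layers and Rorb in layers that receive thalamic input. Most neurons of the striatum are GABAergic spiny projection neurons, which carry either the dopamine receptor Drd1 or Drd2 and use Ppp1r1b, also called DARPP-32, as a relay behind these receptors. None of these genes is silent outside its region. Drd2 is also known from mossy cells of the dentate hilus, Drd1 from granule cells, Tcf7l2 from the oligodendrocyte lineage and Lef1 from brain endothelium. In bulk tissue, fewer cells of a type and less RNA per cell cannot be told apart.

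Some properties of the whole series touch every result. Mitochondrially encoded genes took 26.4% to 32.7% of all TPM in the knockout libraries and 17.5% to 20.3% in the WT libraries. The knockout libraries listed 16279 to 18028 genes at 0.5 TPM or more, against 18666 to 20606 in WT. The median of the log2 fold changes (knockout minus WT) over the 18509 genes tested was −0.44. Median-of-ratios scaling moved this median to 0.06, quantile normalization to 0.09 and rescaling over protein-coding nuclear genes to −0.14. Knockout replicate 3 was the highest of the 3 knockout libraries for 77.8% of genes tested. Knockout replicate 1 held 658 TPM of the choroid plexus gene Ttr, against 8.88 to 13.7 TPM in the other 5 libraries. All 10 genes of a list for hippocampal principal neurons passed the filter on low values, and their summed TPM was 201 to 298 in knockout and 439 to 733 in WT libraries. The gap came largely from Zbtb20, a hippocampal transcription factor. Zbtb20 had 27.6, 43.0 and 58.6 TPM in knockout replicates 1 to 3 and 201, 212 and 449 TPM in WT. Without Zbtb20 the sum was 173 to 239 against 227 to 296, and the genotypes overlapped.

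Windows of 120 bases before the RefSeq transcription start are shown for 3 members because these mark the extremes of the results below. Rorb and Tshz2 had the largest decreases, and Ramp3 was the only member whose estimate was above 0. The sequences came from the RefSeq promoter table (build GRCm38.p6), which held 9 of the 10 members (not Ppp1r1b), and each window matched GRCm39 letter for letter at the position given. They are written 5′ to 3′ on the strand of the gene. Capitals mark the GC box (GGGCGG or CCGCCC), the TATA box (TATAA or TTATA) and the CCAAT box (CCAAT or ATTGG), searched on both strands, and in these 3 windows no match overlaps one of another motif. The window of Rorb lies at chr19:19088561-19088680 on the minus strand, that of Tshz2 at chr2:169474309-169474428 on the plus strand and that of Ramp3 at chr11:6608413-6608532 on the plus strand.
Rorb: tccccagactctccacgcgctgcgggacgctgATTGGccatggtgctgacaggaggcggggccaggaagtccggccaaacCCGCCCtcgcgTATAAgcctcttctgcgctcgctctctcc
Tshz2: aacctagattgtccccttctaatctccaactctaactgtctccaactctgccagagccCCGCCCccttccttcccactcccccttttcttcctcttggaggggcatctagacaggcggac
Ramp3: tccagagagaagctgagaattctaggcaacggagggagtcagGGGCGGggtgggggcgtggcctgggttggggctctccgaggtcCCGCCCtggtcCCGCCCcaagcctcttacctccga
The GC box was in all 3 windows, and the TATA and CCAAT boxes were only in that of Rorb. Among 32851 RefSeq windows of the same length, 26.5% held the GC box, 11.8% the TATA box and 21.3% the CCAAT box. These are matches of letters, and no binding was measured.

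All 10 members passed the filter of at least 0.5 TPM in at least 3 of the 6 libraries. The largest values were those of Tshz2, at 56.3 ± 24.4 TPM (mean ± SD over all 6 libraries), and Ppp1r1b, at 48.2 ± 14 TPM. Prkcd followed with 16.9 ± 6.28, Cux2 with 8.39 ± 2.73, Rorb with 5.77 ± 2.63, Ramp3 with 3.75 ± 0.437, Drd1 with 2.33 ± 0.812, Drd2 with 2.21 ± 0.698, Tcf7l2 with 1.87 ± 0.817 and Lef1 with 1.03 ± 0.562 TPM. The order of Tshz2 and Ppp1r1b held in 4 of 6 libraries, that of Rorb and Ramp3 in 4, that of Ramp3 and Drd1 in 5, that of Drd1 and Drd2 in 3 and that of Drd2 and Tcf7l2 in 5. The remaining neighbours in this order kept it in all 6. Tshz2, Ppp1r1b and Prkcd therefore lay above the median gene tested (8.5 TPM), Cux2 close to it and the other 6 below it.

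**Figure D1:**
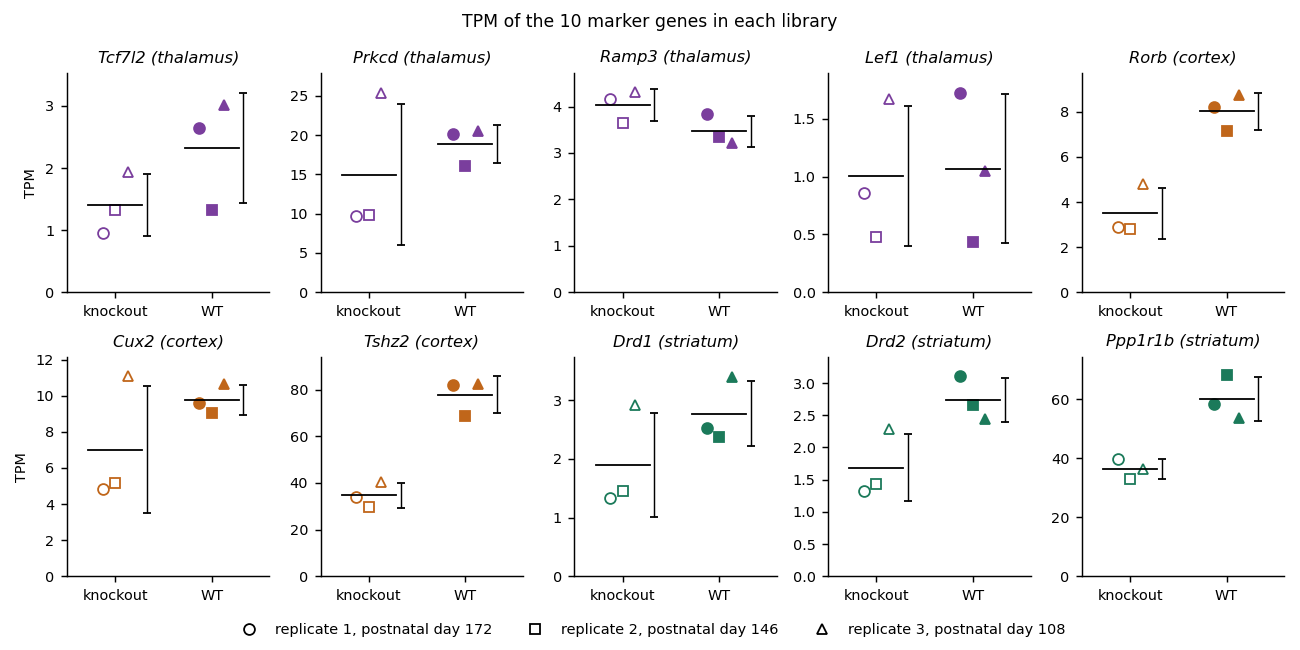
TPM (vertical axes, each from 0) of the 10 markers in the knockout libraries (open symbols) and WT libraries (filled symbols), with the symbol shape giving the replicate and age. Horizontal lines are genotype means and vertical bars the SD (n = 3). The genotypes do not overlap for Rorb, Tshz2, Drd2 and Ppp1r1b, and the open triangle (knockout replicate 3) is the highest knockout library in 9 of the 10 panels.

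Between genotypes, 2 of 3 cortex markers and 1 of 3 striatum markers were lower in the knockout libraries, and none of the 4 thalamus markers was called. Rorb, Tshz2 and Ppp1r1b fell at an adjusted p below 0.05 (limma on log2(TPM + 0.1), Benjamini-Hochberg adjustment over all 18509 genes). That is 3 of 10 members, beside 19.6% of all genes tested and 15.0% of the 14180 protein-coding genes tested. No member rose, beside 0.924% of all genes and 1.04% of protein-coding genes. At an unadjusted p below 0.05 the counts over members were again 3 lower and 0 higher, beside 31.7% and 2.5% of all genes. None of the 10 passed the study's stricter limit, which also asks for a log2 fold change of 2 or more in size. Of all genes, 7.58% (1403) were lower and 0.0594% (11) higher past that limit, with 23 higher when the pair was a block. Quantile normalization gave 571 lower and 107 higher past it. With the block and no limit on size, 25.5% of genes were lower, and the same 3 members were. For protein-coding genes the shares past both limits were 1.58% lower and 0.0141% higher. The groups did not overlap for 4 members, all lower in knockout, beside 34.1% of genes lower and 3.42% higher without overlap. The knockout mouse was the lower one in all 3 pairs for 5 members, against 51.9% of genes. The members' median log2 fold change was −0.63, beside −0.44 over all genes tested, and after median-of-ratios scaling it was −0.14, beside 0.06.

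The thalamus markers begin with the Wnt pathway. Tcf7l2 is a transcription factor that pairs with beta-catenin, and in the adult forebrain it marks thalamic neurons. Tcf7l2 (chromosome 19, 55730188 to 55922091, plus strand, GRCm39) had 0.95, 1.33 and 1.94 TPM in knockout replicates 1, 2 and 3 and 2.64, 1.32 and 3.01 TPM in WT replicates 1, 2 and 3. The WT mouse of day 146 lay within the knockout values, so the genotypes overlapped. The means were 1.41 ± 0.499 and 2.32 ± 0.888 TPM (SD, n = 3 each), and the log2 fold change was −0.66 (SE 0.45, 95% interval −1.67 to 0.35, adjusted p = 0.333). Its adjusted p stayed between 0.126 and 0.845 in 23 alternative settings.

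Lef1, the partner factor of Tcf7l2 in the same family, was the member with the lowest values and the widest spread. Lef1 (chromosome 3, 130903919 to 131018005, plus strand) had 0.86, 0.48 and 1.67 TPM in knockout replicates 1 to 3 and 1.72, 0.43 and 1.05 TPM in WT. Both mice of day 146 were the lowest of their genotype, so the ranges of the genotypes nearly coincided. The log2 fold change was −0.06 (SE 0.60, 95% interval −1.42 to 1.30, adjusted p = 0.958), and it was above 0 in 9 of the 21 alternatives in which Lef1 was tested, with 0.40 after median-of-ratios scaling.

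Prkcd, protein kinase C delta, marks sensory relay nuclei of the thalamus. Prkcd (chromosome 14, 30317307 to 30349238, minus strand) had 9.66, 9.87 and 25.4 TPM in knockout replicates 1 to 3 and 20.1, 16.1 and 20.5 TPM in WT. Knockout replicate 3 was the highest of all 6 libraries and the other 2 knockout libraries were the lowest. The means were 15.0 ± 9.0 and 18.9 ± 2.45 TPM, with a log2 fold change of −0.48 (SE 0.37, 95% interval −1.32 to 0.36, adjusted p = 0.399) that was 0.03 after median-of-ratios scaling. Without knockout replicate 3 the log2 fold change was −0.94 with an adjusted p of 0.009, and without both mice of day 108 it was −0.87 with an adjusted p of 0.0265.

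Ramp3, a membrane partner that sets the ligand choice of calcitonin family receptors, is concentrated in thalamic neurons of the adult forebrain. Ramp3 (chromosome 11, 6608511 to 6627475, plus strand) had 4.16, 3.64 and 4.31 TPM in knockout replicates 1 to 3 and 3.84, 3.35 and 3.21 TPM in WT. The knockout mouse was the higher one in all 3 pairs, although the ranges overlapped, with knockout replicate 2 below WT replicate 1. Means of 4.04 ± 0.352 and 3.47 ± 0.331 TPM gave a log2 fold change of 0.21 (SE 0.29, 95% interval −0.44 to 0.87, adjusted p = 0.646). The estimate was 0.11 to 0.84 over 23 alternatives and 0.71 after median-of-ratios scaling, with adjusted p values of 0.0599 to 0.882.

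Tshz2 and Rorb of the cortex markers had the largest differences among the members, whereas Cux2 had a smaller one than the 3 striatum markers and Tcf7l2. Tshz2, a zinc finger factor of deep-layer and retrosplenial cortical neurons, is given together with its promoter window above. Tshz2 (chromosome 2, 169474613 to 169913736, plus strand) had 33.9, 29.7 and 40.6 TPM in knockout replicates 1 to 3 and 82.2, 68.6 and 82.6 TPM in WT. The highest knockout library stayed 28.1 TPM below the lowest WT library, so the genotypes were well apart. The means were 34.7 ± 5.48 and 77.8 ± 7.95 TPM, a ratio of 0.446, and the log2 fold change was −1.17 (SE 0.21, 95% interval −1.63 to −0.70, adjusted p = 0.00515). Relative to the median of all genes the difference was −0.72. It stayed between −1.29 and −0.66 over 23 alternatives and the adjusted p was below 0.05 in 21 of them. The exceptions left out the pair of day 172 (adjusted p = 0.0504) or that of day 146 (adjusted p = 0.101).

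Rorb, a nuclear receptor that shapes the cortical layer receiving thalamic axons, was the only one of the 9 members with a promoter window whose window held all 3 motifs. Rorb (chromosome 19, 18907969 to 19088585, minus strand) had 2.91, 2.80 and 4.80 TPM in knockout replicates 1 to 3 and 8.22, 7.14 and 8.73 TPM in WT. All knockout libraries were below all WT libraries. Means of 3.50 ± 1.12 and 8.03 ± 0.812 TPM, a ratio of 0.436, gave a log2 fold change of −1.21 (SE 0.31, 95% interval −1.92 to −0.51, adjusted p = 0.0246), which is −0.77 relative to the median of all genes. The estimate lay between −1.46 and −0.66 over 23 alternatives, with an adjusted p below 0.05 in 15. The 8 others were the rescaling over protein-coding nuclear genes (adjusted p = 0.0566) and fits without single libraries other than knockout replicate 3 or without the pairs of days 172 or 146 (adjusted p = 0.070 to 0.299).

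Cux2, a homeobox factor of upper-layer cortical neurons, followed the order of Prkcd. Cux2 (chromosome 5, 121994429 to 122188521, minus strand) had 4.82, 5.17 and 11.1 TPM in knockout replicates 1 to 3 and 9.62, 9.02 and 10.7 TPM in WT. Knockout replicate 3 was again the highest of the 6 libraries and the other knockout libraries the lowest. The log2 fold change was −0.57 (SE 0.35, 95% interval −1.36 to 0.21, adjusted p = 0.281) and −0.07 after median-of-ratios scaling. Without knockout replicate 3 it was −0.95 with an adjusted p of 0.0119, and without both mice of day 108 it was −0.89 with an adjusted p of 0.0303.

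Among striatum markers, only the signalling relay Ppp1r1b was called, and both receptors had negative estimates. Ppp1r1b (chromosome 11, 98239169 to 98248624, plus strand) had 39.7, 33.1 and 36.4 TPM in knockout replicates 1 to 3 and 58.3, 68.3 and 53.5 TPM in WT. The genotypes were separate, and Ppp1r1b was the only member for which knockout replicate 3 was not the highest knockout library. Means of 36.4 ± 3.30 and 60.0 ± 7.54 TPM gave a log2 fold change of −0.72 (SE 0.20, 95% interval −1.17 to −0.27, adjusted p = 0.0331), which is −0.27 relative to the median of all genes. This call depended on the scaling of the libraries. The log2 fold change was −0.21 with median-of-ratios factors (adjusted p = 0.614), −0.30 with quantile normalization (adjusted p = 0.353) and −0.40 with rescaling over protein-coding nuclear genes (adjusted p = 0.20). Of 23 alternatives, 9 kept an adjusted p below 0.05, and 7 of the 9 fits that left out a library or a pair did not.

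Drd1 encodes the receptor of the direct pathway, which raises cyclic AMP on binding dopamine. Drd1 (chromosome 13, 54204872 to 54209760, minus strand) had 1.33, 1.45 and 2.91 TPM in knockout replicates 1 to 3 and 2.53, 2.37 and 3.40 TPM in WT. The knockout mouse was lower in each pair, but knockout replicate 3 lay above 2 WT libraries. The log2 fold change was −0.59 (SE 0.40, 95% interval −1.5 to 0.32, adjusted p = 0.337), and no alternative brought the adjusted p below 0.0538.

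Drd2 encodes the receptor of the indirect pathway, which lowers cyclic AMP. Drd2 (chromosome 9, 49251654 to 49319477, plus strand) had 1.33, 1.44 and 2.28 TPM in knockout replicates 1 to 3 and 3.11, 2.66 and 2.44 TPM in WT. The genotypes did not overlap, with 0.16 TPM between knockout replicate 3 and WT replicate 3. The log2 fold change was −0.70 (SE 0.36, 95% interval −1.51 to 0.11, adjusted p = 0.206). Leaving out knockout replicate 3 moved it to −0.93 with an adjusted p of 0.0476.

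**Figure D2:**
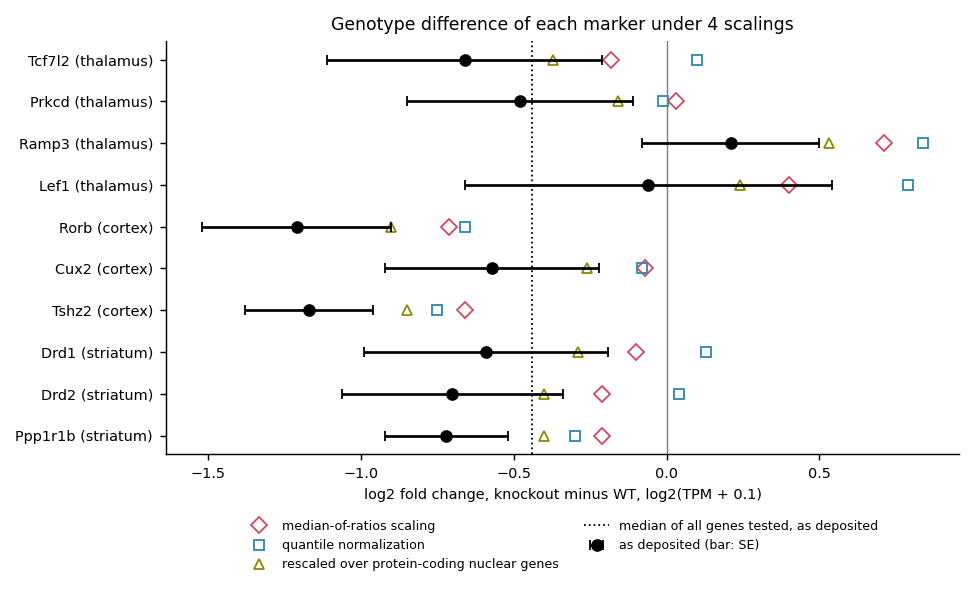
Log2 fold change (horizontal axis, knockout minus WT on log2(TPM + 0.1)) of each marker with the deposited scaling (black points, bars are SE) and after 3 other scalings (open symbols), with a dotted line at the median of all genes tested (−0.44). Tshz2 and Rorb stay at −0.66 or below under all 4 scalings, Ppp1r1b moves from −0.72 to −0.21, and Tcf7l2, Prkcd, Lef1, Drd1 and Drd2 are above 0 under at least 1 of them.

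The number of members called depended on which libraries were in the fit. Without knockout replicate 3, 6 members were lower at an adjusted p below 0.05 (Prkcd, Rorb, Cux2, Tshz2, Drd2 and Ppp1r1b), beside 41.3% of all genes tested in that fit, and the median of all genes was then −0.66. Without any other single library, Tshz2 alone was called, beside 12.5% of genes without knockout replicate 1, 10.3% without knockout replicate 2 and 11.4%, 9.0% and 5.81% without WT replicates 1, 2 and 3. Without the pair of day 108 the number was 5, beside 27.3% of genes, and without the pair of day 172 or of day 146 it was 0, beside 7.44% and 6.24%. Median-of-ratios scaling left 2 members called (Rorb and Tshz2), beside 11.5% of genes, quantile normalization the same 2, beside 10.3%, and rescaling over protein-coding nuclear genes only Tshz2, beside 10.9%. The fits with the most members called, 6 and 5, were also those with the highest shares of all genes called.

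For carry-over into single libraries, each library was compared with the mean of the other 2 of its genotype on the log2(TPM + 0.1) scale, and the members were placed among the same values of all genes tested. In knockout replicate 3 the median over members was 0.73, beside 0.60 over all genes, and 7 of 10 members lay above the median gene. Prkcd was at the 89.9th percentile (2.58-fold above the other 2 knockout libraries), Lef1 at the 86.5th (2.37-fold), Cux2 at the 82.8th (2.19-fold) and Drd1 at percentile 77.3 (2.02-fold). Rorb, Tcf7l2 and Drd2 were at percentiles 56.3 to 60.0, Tshz2 at 33.1, Ramp3 at 21.9 and Ppp1r1b at 16.6. Members of the same region were thus far apart in this library, and none passed the 95th percentile.

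In the other libraries the medians over members were −0.37 in knockout replicate 1 (−0.40 over all genes), −0.36 in knockout replicate 2 (−0.18), 0.14 in WT replicate 1 (0.00), −0.25 in WT replicate 2 (−0.20) and 0.19 in WT replicate 3 (0.23). The number of members above the median gene was 5 of 10 in knockout replicate 1, 1 in knockout replicate 2, 7 in WT replicate 1, 4 in WT replicate 2 and 3 in WT replicate 3. WT replicate 2 was the lowest WT library for 7 of 10 members, beside 50.1% of all genes. Knockout replicate 3 was the highest knockout library for 9 of 10, beside the 77.8% given above. WT replicate 3 was the highest WT library for 6 of 10 members, beside 50.9% of all genes, and it was the highest of all 6 libraries for Tcf7l2, Rorb, Tshz2 and Drd1.

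Past the 95th percentile, each library held 184 to 493 of the 14180 protein-coding genes tested. Of the 60 member values, 1 lay past it. This was Lef1 in WT replicate 1 at the 97.7th percentile, with 1.72 TPM against 0.43 and 1.05. The other 3 thalamus markers in that library were at percentiles 63.0 to 79.9. The epithelium of the choroid plexus, tissue that also borders the hippocampus, was placed in the same way. In knockout replicate 1, 5 of the 6 choroid plexus genes tested were past the 95th percentile, with Ttr 59.2-fold, Kcnj13 10.1-fold and Folr1 3.81-fold above the other 2 knockout libraries. The 10 members in that same library were at percentiles 23.5 to 88.7. Kcnj13 was at 0.34 and 1.19 TPM in knockout replicates 2 and 3, whereas Tshz2 and Ppp1r1b were at 29.7 TPM or more in every library. An equal amount of added TPM moves the log2 value of a high gene less. These percentiles therefore cannot be compared as amounts of tissue.

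**Figure D3:**
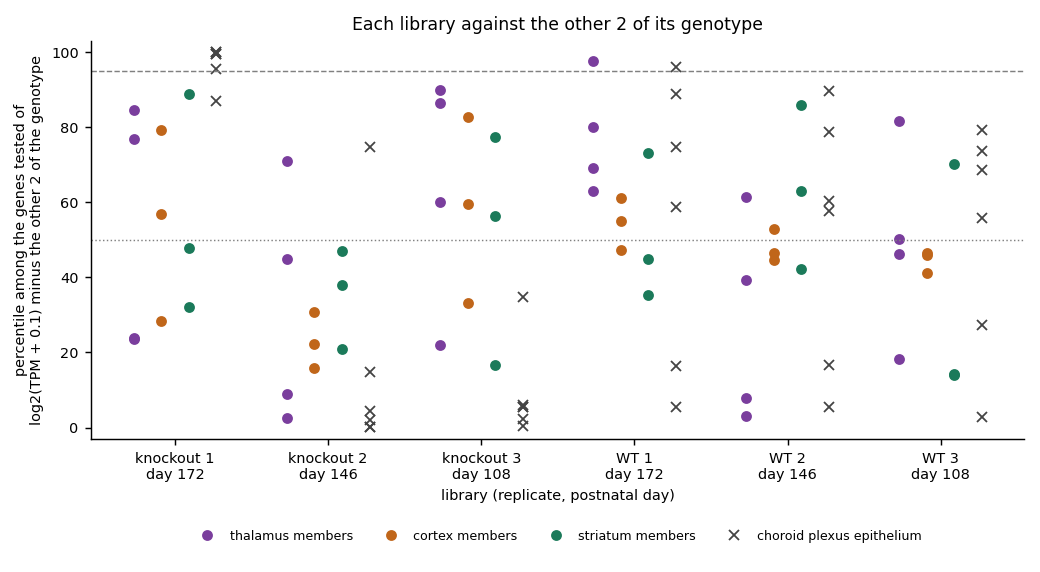
Percentile (vertical axis) of each gene among all genes tested for its log2(TPM + 0.1) in 1 library minus the mean of the other 2 libraries of its genotype, for the 6 libraries along the horizontal axis. Coloured points are the markers of thalamus, cortex and striatum, crosses are 6 choroid plexus genes, the dotted line is the 50th and the dashed line the 95th percentile. One marker point, Lef1 in WT replicate 1, is above the dashed line, whereas 5 crosses are above it in knockout replicate 1.

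The markers of each region were also summed. The thalamus markers summed to 15.6, 15.3 and 33.3 TPM in knockout replicates 1 to 3 and to 28.3, 21.2 and 27.8 TPM in WT, with overlap. Prkcd made up 61.8% to 76.2% of these sums. The cortex markers summed to 41.6, 37.7 and 56.4 TPM in knockout and to 100.06, 84.8 and 101.98 TPM in WT, without overlap, and Tshz2 made up 71.9% to 82.2%. The striatum markers summed to 42.3, 36.0 and 41.6 TPM in knockout and to 63.9, 73.3 and 59.4 TPM in WT, also without overlap, and Ppp1r1b made up 87.5% to 93.7%. Each sum is therefore mostly 1 gene.

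Ratios within a library do not depend on a factor applied to the whole library. They were not computed under quantile normalization. As a percentage of the summed hippocampal list without Zbtb20, the cortex markers were at 24.0, 18.2 and 23.6 in knockout replicates 1 to 3 and at 33.8, 37.3 and 36.0 in WT, so the genotypes stayed apart. The striatum markers were at 24.5, 17.3 and 17.4 against 21.6, 32.3 and 20.9, and the thalamus markers at 9.04, 7.38 and 13.9 against 9.56, 9.33 and 9.80, both with overlap. With Zbtb20 in the list, the cortex markers were at 20.7, 15.0 and 18.9 against 20.1, 19.3 and 13.9, with overlap. The striatum markers were then at 21.1, 14.4 and 14 against 12.9, 16.7 and 8.10, with overlap. The thalamus markers were at 7.79, 6.12 and 11.2 against 5.70, 4.83 and 3.79, where the knockout libraries were the higher ones without overlap. By the genotype means, the cortex markers went from 21.9 against 35.7 without Zbtb20 to 18.2 against 17.8 with it, and the striatum markers from 19.7 against 24.9 to 16.5 against 12.6. With Zbtb20 in the list the cortex means were thus nearly equal, and the striatum means changed sides, with overlap in both versions. The thalamus means were higher in knockout in both versions, at 10.1 against 9.56 without Zbtb20 and 8.36 against 4.77 with it.

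Lists of further region genes were examined beside the members. The counts called in each list stand beside the 19.6% of all genes tested that were lower and the 0.924% that were higher. Of 8 other thalamus genes, 7 were tested, 3 fell and none rose, with a median log2 fold change of −0.34 (0.15 after median-of-ratios scaling). Rora, a nuclear receptor related to Rorb, had 10.6 ± 1.47 TPM in knockout and 35.8 ± 7.32 TPM in WT, with a log2 fold change of −1.73 (SE 0.24, adjusted p = 0.00194). Ntng1, an axonal adhesion protein of thalamocortical fibres, fell from 27.4 ± 7.71 to 12.8 ± 5.01 TPM, with a log2 fold change of −1.13 (SE 0.33, adjusted p = 0.0395), and −0.62 (adjusted p = 0.0536) with median-of-ratios scaling. Plekhg1 fell by 2.04 on the log2 scale (SE 0.45, adjusted p = 0.0139) and by 1.54 after median-of-ratios scaling, and its adjusted p was 0.0815 without WT replicate 3 and 0.0633 without the pair of day 146. Slc17a6, the vesicular glutamate transporter used by thalamic projection neurons, was at 10.7 ± 2.46 TPM in knockout and 9.38 ± 1.80 TPM in WT, with a log2 fold change of 0.19 (95% interval −0.44 to 0.82, adjusted p = 0.675), which median-of-ratios scaling moved to 0.70 (adjusted p = 0.0330). The whole interval of Slc17a6 lay above the estimates of the 3 genes that fell.

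The habenula, a small nucleus above the thalamus, was represented by 6 genes. Its defining factor Pou4f1 was listed at 0 in all knockout libraries and at 0 to 0.24 TPM in WT, and 3 genes were tested. Nwd2 fell from 23.8 ± 1.37 to 6.69 ± 0.707 TPM, with a log2 fold change of −1.82 (SE 0.23, adjusted p = 0.00131). Tac2, a tachykinin precursor, had a log2 fold change of 0.96 (95% interval −0.07 to 1.99, adjusted p = 0.175) and one of 1.44 (adjusted p = 0.0241) with median-of-ratios scaling. Gpr151 had a log2 fold change of −0.42 (95% interval −1.46 to 0.63, adjusted p = 0.565).

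Of 10 other cortex genes, all were tested and 1 (Foxp2) was called lower, with a median log2 fold change of −0.21 (0.29 after median-of-ratios scaling). Foxp2 is a factor of corticothalamic neurons that thalamus and striatum also use. It had 0.42, 0.37 and 0.48 TPM in knockout replicates 1 to 3 and 1.91, 2.64 and 3.89 TPM in WT, with a log2 fold change of −2.43 (SE 0.42, adjusted p = 0.00487). Its 3 knockout values were all below 0.5 TPM, so it passed the filter only through WT, where it was high, and it was not tested in fits without a WT library or a pair. Its call is therefore given as a description. Fezf2, a factor of subcortical projection neurons, had a log2 fold change of −0.75 (SE 0.26, adjusted p = 0.0733), and with the pair as a block its adjusted p was 0.0255. With median-of-ratios or protein-coding rescaling added to the block it was at −0.24 (adjusted p = 0.335) or −0.43 (adjusted p = 0.117). Nr4a2 had −0.42 (95% interval −1.10 to 0.26, adjusted p = 0.357) and Rprm had 0.65 (95% interval −0.02 to 1.33, adjusted p = 0.158), which median-of-ratios scaling moved to 1.16 (adjusted p = 0.00808). Of the 10 estimates, 6 were below 0, beside 14441 of the 18509 genes tested. The estimates of 9 genes were closer to 0 than those of Rorb and Tshz2.

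Of 10 other striatum genes, all were tested, 2 fell and 1 rose, with a median log2 fold change of −0.71 (−0.22 after median-of-ratios scaling). Adcy5, the adenylyl cyclase behind striatal dopamine receptors, fell from 43.9 ± 4.56 to 25.1 ± 3.47 TPM, with a log2 fold change of −0.81 (SE 0.21, adjusted p = 0.0254). As for Ppp1r1b, the call ended with other scalings, at −0.30 (adjusted p = 0.239) with median-of-ratios, −0.37 (adjusted p = 0.131) with quantile and −0.49 (adjusted p = 0.104) with protein-coding rescaling. Syndig1l, the other gene that fell, had a log2 fold change of −1.16 (SE 0.30, adjusted p = 0.0240), and −0.66 (adjusted p = 0.136) with median-of-ratios scaling. Tac1, the precursor of substance P in direct-pathway neurons, rose from 3.47 ± 0.840 to 10.1 ± 2.60 TPM, with a log2 fold change of 1.52 (SE 0.32, adjusted p = 0.0106). Penk, the enkephalin precursor of indirect-pathway neurons, was at 15.0, 15.1 and 15.1 TPM in knockout and 18.6, 12.6 and 12.2 TPM in WT, a log2 fold change of 0.09 (95% interval −0.47 to 0.65, adjusted p = 0.836). Pde10a, a phosphodiesterase of spiny projection neurons, had a log2 fold change of −1.25 (SE 0.39, adjusted p = 0.0501), and with the pair as a block its adjusted p was 0.0134, with −0.75 (adjusted p = 0.0435) when median-of-ratios scaling was added. Drd1 and Tac1, which direct-pathway neurons share, had estimates of −0.59 and 1.52, and under quantile normalization Drd1 was at 0.13.

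Together, 7 of the 30 further region genes tested were called lower and 1 higher at an adjusted p below 0.05. These counts stand beside 19.6% and 0.924% of all genes tested. The 7 include Foxp2, which passed the filter only through WT. The median log2 fold change was −0.41 beside the −0.44 of all genes. In the comparison of single libraries, 4 of the 180 values of these genes were past the 95th percentile. This stands beside 184 to 493 of the 14180 protein-coding genes in each library. The 4 were named after the values were seen. They were Tnnt1 and Rspo1 in knockout replicate 1, Rasgrf2 in knockout replicate 3 and Ccn2 in WT replicate 1.

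**Figure D4:**
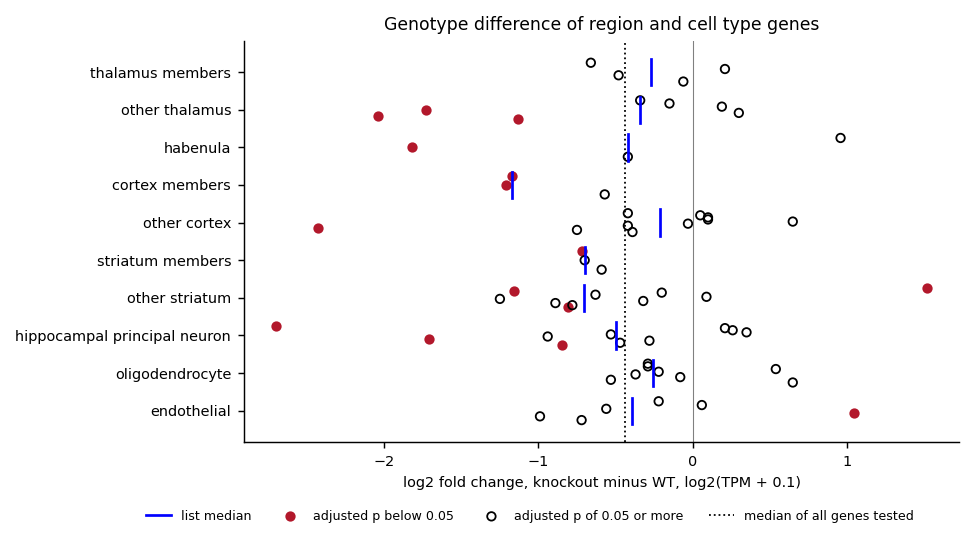
Log2 fold change (horizontal axis, knockout minus WT on log2(TPM + 0.1)) of each tested gene of 10 lists (rows), filled where the adjusted p is below 0.05, with blue bars at list medians and a dotted line at the median of all genes tested (−0.44). The cortex markers have the lowest list median (−1.17) of the lists drawn, and filled points lie on both sides of 0 only among the other striatum genes.

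Lists for the hippocampus and for cells that also use some of the members are given for comparison. Of the 10 hippocampal principal neuron genes, 3 fell, with a list median of −0.50. These were Zbtb20 with a log2 fold change of −2.70 (SE 0.36, adjusted p = 0.00173), the CA3 glutamate receptor subunit Grik4 with −1.71 (SE 0.25, adjusted p = 0.00249) and the granule cell gene C1ql2 with −0.85 (SE 0.21, adjusted p = 0.0200). The call of C1ql2 ended with other scalings, at −0.34 (adjusted p = 0.432) with median-of-ratios, −0.46 (adjusted p = 0.236) with quantile and −0.53 (adjusted p = 0.127) with protein-coding rescaling. Spink8, a CA1 gene, had 0.26 (95% interval −0.30 to 0.81, adjusted p = 0.501). None of the 8 oligodendrocyte genes was called by limma (1 was lower at an unadjusted p below 0.05), and their sum was 3240 to 4420 TPM in knockout and 4170 to 4840 TPM in WT. Of 6 endothelial genes, only Ly6c1 was called. It rose with a log2 fold change of 1.05 (SE 0.23, adjusted p = 0.0130). The endothelial sum was 90.1 to 137 TPM in knockout and 73.1 to 108 TPM in WT. Ly6c1 alone was at 49.4 to 79.7 TPM in knockout and 27.0 to 32.8 TPM in WT. Of the 6 endothelial estimates, 4 were below 0, with a list median of −0.39. By limma, 2 endothelial genes were lower at an unadjusted p below 0.05 (Flt1 at −0.99 and Cldn5 at −0.72). Of the 6 choroid plexus genes tested, Otx2 was called lower, with a log2 fold change of −1.23 (SE 0.37, adjusted p = 0.0471), and −0.73 (adjusted p = 0.254) with median-of-ratios scaling. Folr1, a folate receptor, had 12.08, 3.17 and 3.02 TPM in knockout replicates 1 to 3 and 2.76, 1.66 and 1.16 TPM in WT, without overlap. Its log2 fold change was 1.43 (SE 0.57, adjusted p = 0.108, or 0.0207 with the pair as a block), and it was 0.79 (adjusted p = 0.355) without knockout replicate 1, the library with high Ttr. The part of these cell types in the values of Tcf7l2 and Lef1 was not tested.

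Genes that Tcf7l2 and Lef1 are known to switch on were followed in a list of 8 Wnt target genes, of which 6 were tested. Rnf43, a brake on Wnt receptors, fell from 3.13 ± 0.669 to 1.07 ± 0.0751 TPM, with a log2 fold change of −1.45 (SE 0.35, adjusted p = 0.0196), and it was the only gene called, with a list median of −0.59. The call of Rnf43 held in 14 of 23 alternatives. It ended with quantile normalization (adjusted p = 0.112), with the block and median-of-ratios scaling (0.0697) and in 7 of the 9 fits that left out a library or a pair (0.0530 to 0.215). Axin2, the most widely used Wnt readout, had 4.61, 4.17 and 8.89 TPM in knockout replicates 1 to 3 and 15.5, 8.05 and 18.7 TPM in WT. Its log2 fold change of −1.24 (SE 0.40, adjusted p = 0.0585) did not pass, and the genotypes overlapped. The knockout mouse was lower in all 3 pairs, and with the pair as a block the adjusted p of Axin2 was 0.0134 (0.0402 with median-of-ratios scaling added). Ccnd1 was at 0.64 (95% interval −0.28 to 1.57, adjusted p = 0.306, or 0.0299 with median-of-ratios scaling), and Nkd1 at −0.35 (95% interval −0.96 to 0.26, adjusted p = 0.398).

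The other genes called in these lists differed in how often the call held. Of 23 alternatives, the adjusted p of Rora, Nwd2, Zbtb20 and Grik4 was below 0.05 in all 23, that of Plekhg1 in 21, those of Tac1 and Ly6c1 in 20, that of Ntng1 in 12, those of Syndig1l and C1ql2 in 11, that of Adcy5 in 9 and that of Otx2 in 7.

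Around the dopamine receptors, the 2 genes with the highest mean TPM in a list of further dopamine signalling genes are given. Ppp1r1a, the phosphatase inhibitor related to Ppp1r1b, was at 118 ± 12.3 TPM in knockout and 110 ± 12.7 TPM in WT, with a log2 fold change of 0.10 (95% interval −0.32 to 0.53, adjusted p = 0.745). The G protein subunit Gng7, which couples striatal Drd1, was at −0.38 (95% interval −0.80 to 0.05, adjusted p = 0.195).

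The spread within genotypes also set the members apart from each other. The pooled SD of log2(TPM + 0.1) within genotypes was 0.128 for Ramp3, 0.156 for Ppp1r1b and 0.192 for Tshz2, below the 0.416 of the median gene. It was 0.306 for Drd2, 0.316 for Rorb, 0.458 for Drd1, 0.471 for Cux2, 0.547 for Tcf7l2, 0.575 for Prkcd and 0.854 for Lef1. The 3 members that were called had SDs of 0.316 or less, and so did Ramp3 and Drd2, which were not called. This spread is itself part of the test behind a call.

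The genes whose pattern over the 6 libraries was nearest to each regional sum were found by the root mean square difference of centred log2 values. For thalamus these were Stx3 (0.053), Fbrsl1 (0.0549) and Dusp15 (0.0657), for cortex Ckap4 (0.0513), Nrde2 (0.0612) and Sox10 (0.0649), and for striatum Insc (0.0599), Zfp454 (0.0692) and Gipc1 (0.0698). Within a difference of 0.1 there were 37 tested genes for the thalamus sum, 15 for the cortex sum and 30 for the striatum sum, and within 0.2 there were 1334, 517 and 785.

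Several members are long genes that share their locus with others. Tshz2 spans 439 kb, Cux2 194 kb, Tcf7l2 192 kb, Rorb 181 kb and Lef1 114 kb, whereas Drd1 spans 4.89 kb and Ppp1r1b 9.46 kb. Among protein-coding genes tested, the median log2 fold change was −0.49 for the 2288 genes over 100 kb (17.4% lower) and −0.30 for the 2941 genes under 10 kb (14.2% lower). In GENCODE M39, 26 genes overlap a member, and 2 of them were tested. AY702102, antisense within Tshz2 (chromosome 2, 169803935 to 169805107, minus strand), had 0, 0.14 and 0.50 TPM in knockout replicates 1 to 3 and 1.05, 0.84 and 2.53 TPM in WT, with a log2 fold change of −2.54 (SE 0.73, adjusted p = 0.0378). Its WT values alone took it past the filter, so this call too is a description. Gm56751, antisense to Prkcd, had a log2 fold change of −0.04 (SE 0.97, adjusted p = 0.980). The strand setting of the quantification is not given in the sources used here, so reads of a gene and its antisense partner may not have been kept apart.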

How the data were processed

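Poly(A) RNA from the hippocampi of 6 mice was made into strand-specific libraries and sequenced from both ends by a company for the study, and the reads were mapped to GRCm39 and quantified. The study's methods name STAR and RSEM, and the submitters' processing notes list FastQC 0.11.9, Trimmomatic 0.39, STAR 2.7.10a, featureCounts and Subread 2.0.3; the annotation release is not given in the sources used here. The authors deposited TPM values for 56941 genes, of which 56323 were matched to GENCODE M39. TPM values keep no read depth, so no count model was used and no counting interval is given.

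Genes with at least 0.5 TPM in at least 3 of 6 libraries (18509) were fitted on log2(TPM + 0.1) with limma 3.58.1 (trend) in R 4.3.3, genotype as the factor, with Benjamini-Hochberg adjustment. A call required an adjusted p below 0.05, and, for the stricter limit taken from the study, a log2 fold change of 2 or more in size. Intervals are limma's 95% intervals of the log2 fold change, which understates changes of low genes. Tables used python 3.11.15.

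The members, the 10 other gene lists and the alternatives were chosen with earlier results of these data known. Named genes were all members, from each other list the 3 genes with the highest mean TPM and those past both limits, the 3 genes most like each regional sum, and tested genes overlapping a member; others are named where a count of 5 or fewer includes them, or after their values were seen. Same-age mice were littermates per the study's methods, and deviations from the genotype means correlated within pairs at −0.0111 (replicate 1), 0.112 (replicate 2) and 0.178 (replicate 3). A replicate block for the pairs was tried as an alternative, as were other pseudocounts, filters, scalings, variance options and fits without each library or pair; the block with median-of-ratios or protein-coding scaling, and regional sums relative to the hippocampal list, were added after seeing the data. A gene of the dopamine list, and the counts of that list, are not reported here.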

Additional observations from a re-analysis of the deposited data

How the results depend on the processing

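Over all genes, the number higher past both limits was 11, and it was 6 and 2 with pseudocounts of 0.5 and 1, 28 with no filter, 6 with a mean TPM of at least 1, 57 and 107 with median-of-ratios and quantile scaling, 27 and 41 with rescaling without mitochondrially encoded genes and over protein-coding nuclear genes, and 171 without the limit on size. Leaving out a library or pair gave 4 (without knockout replicate 1) to 28 (without WT replicate 1). The number lower was 1403, and it was 744 and 436 with the larger pseudocounts, 872 with median-of-ratios and 571 with quantile scaling, and 3622 without the limit on size. Leaving out a library or pair gave 516 (without WT replicate 3) to 1723 (without knockout replicate 3), with 786 without WT replicate 1, 747 without WT replicate 2 and 660 to 694 without a pair. With the replicate block, which pairs mice of the same age, 23 genes were higher and 1446 lower, and the block changed no member's call, while Axin2, Fezf2, Pde10a, Lct and Folr1 of the other lists passed an adjusted p of 0.05 with it. The block with median-of-ratios scaling gave 73 and 878, and with protein-coding rescaling 47 were higher. Among the 30 further region genes tested, 0 were higher past both limits, and 1 (Tac1) was with median-of-ratios or quantile scaling and with the block and median-of-ratios scaling. The number lower was 2 (Plekhg1 and Foxp2, the latter not tested without a WT library or a pair), and it was 0 with pseudocounts of 0.5 or 1, with median-of-ratios or quantile scaling and with the block and median-of-ratios scaling. It was 1 with rescaling without mitochondrially encoded genes or over protein-coding nuclear genes, also with the block, and 0 to 2 without a library or pair.

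The sign turned under quantile normalization for Tcf7l2 (0.10), Drd1 (0.13) and Drd2 (0.04), and under median-of-ratios scaling for Prkcd (0.03, the same with the block). Lef1 was above 0 with median-of-ratios scaling (0.40, the same with the block), quantile normalization (0.79), rescaling without mitochondrially encoded genes (0.14) and over protein-coding nuclear genes (0.24, the same with the block), and it was −0.54 to 0.35 without single libraries, above 0 without knockout replicate 2 (0.33), WT replicate 1 (0.35) or WT replicate 3 (0.02). Rorb, Cux2, Tshz2, Ppp1r1b and Ramp3 kept their sign in all 23 alternatives.

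The difference of the mean log2 summed TPM, knockout minus WT, was −0.35 for thalamus, and it was 0.16 with median-of-ratios scaling, −0.03 with protein-coding rescaling, −0.08 without Prkcd, 0.78 relative to the hippocampal list, 0.03 relative to that list without Zbtb20 and −0.72 to −0.16 without single libraries. For cortex it was −1.10, and it was −0.58 with median-of-ratios scaling, −0.78 with protein-coding rescaling, −0.84 without Tshz2, 0.04 relative to the hippocampal list, −0.71 relative to that list without Zbtb20 and −1.27 to −0.98 without single libraries. For striatum it was −0.71, and the first 2 of these scalings gave −0.20 and −0.39, the hippocampal list 0.43, that list without Zbtb20 −0.33 and single libraries −0.78 to −0.63. Why these values moved was not tested. With 3 mice per genotype an exact permutation test of 1 gene cannot go below p = 0.1, and without read depth the precision of the low values of Lef1, Tcf7l2, Drd1 and Drd2 is unknown.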
